A study of Mus musculus with 40 samples.

Results

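Alveolar type 1 (AT1) cells are represented here by 8 genes, Ager, Aqp5, Hopx, Pdpn, Rtkn2, Akap5, Clic5 and Emp2, which were chosen by name as known AT1 genes and found among the 37310 genes of the mouse count table. The rule is a list of names, with no threshold on a measured value. All 8 were among the 15630 genes that passed the filter on low values and were tested. The mice were female SWR/J and A/J animals, and the treated ones received N-nitroso-tris-chloroethylurea (NTCU), a carcinogen painted on the skin that gives rise to squamous lesions of the airway. RNA was sequenced from frozen sections of whole lung and from cells cut out by laser capture microdissection (LCM), and each sample carries a histological grade.

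Of 40 samples collected, the 25 that passed quality control were used. The normal group had 7 samples, 4 from SWR/J and 3 from A/J mice, with a total NTCU dose of 0 µmol. The mild dysplasia group had 5 samples, which were all from SWR/J mice given 15 µmol. The high-grade group had 13 samples. Of these, 8 came from SWR/J mice, 6 with moderate to severe dysplasia after 25 to 30 µmol and 2 with severe dysplasia after 50 µmol. The other 5 came from A/J mice, 3 with moderate to severe dysplasia after 14 µmol, 1 with carcinoma in situ and 1 with an SCC (squamous cell carcinoma) tumor, both after 20 µmol. LCM gave 13 of the samples and whole lung gave 12. Grade rose together with dose in each strain, so the grade comparisons below cannot be told apart from comparisons of dose. The labels do not tie samples to animals, so the p-values measure only the spread between these samples, which may in part be technical. In the mild dysplasia group the LCM samples labelled 7 and 7c share a number. Whether they share an animal is not stated, and they were treated as separate samples.

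AT1 cells are the thin, flat cells that cover nearly all of the gas exchange surface of the lung. They lie against the capillary endothelium and arise from cuboidal alveolar type 2 (AT2) cells, which make surfactant. Several genes used as AT1 markers are also known outside the alveolus: Aqp5 in submucosal gland and airway cells, Hopx in many epithelia, and Pdpn in basal and squamous epithelium and lymphatic endothelium.

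Positions are given in mm9 (NCBIM37) as whole-gene spans. Ager lies on chromosome 17 from 34734807 to 34737879 on the plus strand, and Clic5 lies on the same chromosome and strand from 44325521 to 44417117. Aqp5 is on chromosome 15 from 99421280 to 99425260 on the plus strand. Hopx is on chromosome 5 from 77515468 to 77544186, Pdpn on chromosome 4 from 142857334 to 142889467 and Emp2 on chromosome 16 from 10281842 to 10314061, all on the minus strand. Rtkn2 is on chromosome 10 from 67442318 to 67522488 and Akap5 on chromosome 12 from 77425878 to 77435140, both on the plus strand. Exons of Hopx, Rtkn2 and Akap5 overlap those of an annotated gene on the opposite strand (Gm15830, Gm16212 and AC120002.1). The library kit does not mark strand, so reads of these pairs cannot be told apart.

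The promoter windows of Ager and Aqp5 are shown because these members followed different genes across the samples, as given further on. Each window runs from 250 bases before the start of the gene to 50 bases after it, from RefSeq on GRCm38.p6, a later build than that of the counts. Capitals mark the GC box GGGCGG on either strand, which is bound by Sp1-type factors.
Ager promoter, chr17:34597600-34597899, plus strand: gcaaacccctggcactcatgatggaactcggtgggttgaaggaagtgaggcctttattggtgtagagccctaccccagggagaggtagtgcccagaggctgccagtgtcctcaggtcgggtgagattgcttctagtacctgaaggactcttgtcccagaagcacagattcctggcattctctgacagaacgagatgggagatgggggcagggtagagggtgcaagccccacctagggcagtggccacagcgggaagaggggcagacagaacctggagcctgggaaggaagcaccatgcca
Aqp5 promoter, chr15:99590778-99591077, plus strand: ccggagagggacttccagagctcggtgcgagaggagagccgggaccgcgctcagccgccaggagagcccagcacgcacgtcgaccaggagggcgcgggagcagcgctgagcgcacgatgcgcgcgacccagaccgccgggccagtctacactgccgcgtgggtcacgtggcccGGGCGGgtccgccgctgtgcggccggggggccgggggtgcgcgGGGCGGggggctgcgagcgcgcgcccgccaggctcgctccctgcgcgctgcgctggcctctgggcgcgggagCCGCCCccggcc
The Ager window held 0 GC boxes and the Aqp5 window held 3, and 58.3% of the bases were G or C in Ager against 79.7% in Aqp5, beside a median of 52.7% over all promoters. Of the 7 members with a promoter entry (all but Rtkn2), the GC box was found in 5 (Aqp5 and Akap5 with 3 each, Pdpn and Clic5 with 2 each, Emp2 with 4) and it was in 35.7% of all 32851 promoter windows. The TEAD core GGAATG, searched on both strands, was in none of the members' windows and in 14.7% of all windows. The NKX2 core CAAGTG was found once, in 1 of the 2 Hopx windows, and in 13.6% of all windows.

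The sum of expected counts in a sample ranged from 2667387 to 16534728. The marker lists of other tissues set some libraries apart. A list of thymocyte and T cell genes summed to above 3000 CPM (counts scaled to library size) in 4 samples, which were 2 SWR/J normal samples, 1 A/J normal sample and 1 SWR/J high-grade sample, and a list of skeletal muscle genes summed to above 5000 CPM in 3 SWR/J high-grade samples. Of the defining distal lung markers, Sftpc (surfactant protein C, of AT2 cells) ranged in whole lung from 4.89 to 14.28 log2 CPM, and the lowest value belonged to the SWR/J normal sample with the highest thymocyte sum, 5349 CPM. In 2 LCM samples the written description and the grade disagreed between normal and mild dysplasia, 1 SWR/J sample of the mild dysplasia group and 1 A/J sample of the normal group, and they were grouped by the grade. Because these are bulk samples, fewer AT1 cells and less RNA per AT1 cell cannot be told apart in any value below.

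Per kilobase of exon, Aqp5 had the highest median level over the 25 samples at 197 CPM per kilobase, followed by Ager at 141 and Hopx at 134 CPM per kilobase. Emp2 followed at 88.9 CPM per kilobase, then Pdpn at 22.0 and Clic5 at 13.4, and Rtkn2 and Akap5 were lowest at 2.55 and 2.52 CPM per kilobase. Between neighbours in this order the ranges over samples overlapped for every pair, for example 9.24 to 1086 CPM per kilobase for Aqp5 against 1.75 to 660 for Ager. The spread over samples was widest for Ager and Akap5, with SDs of 2.69 and 2.67 log2 CPM (n = 25), and narrowest for Pdpn, with an SD of 1.14 log2 CPM (n = 25).

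**Figure D1:**
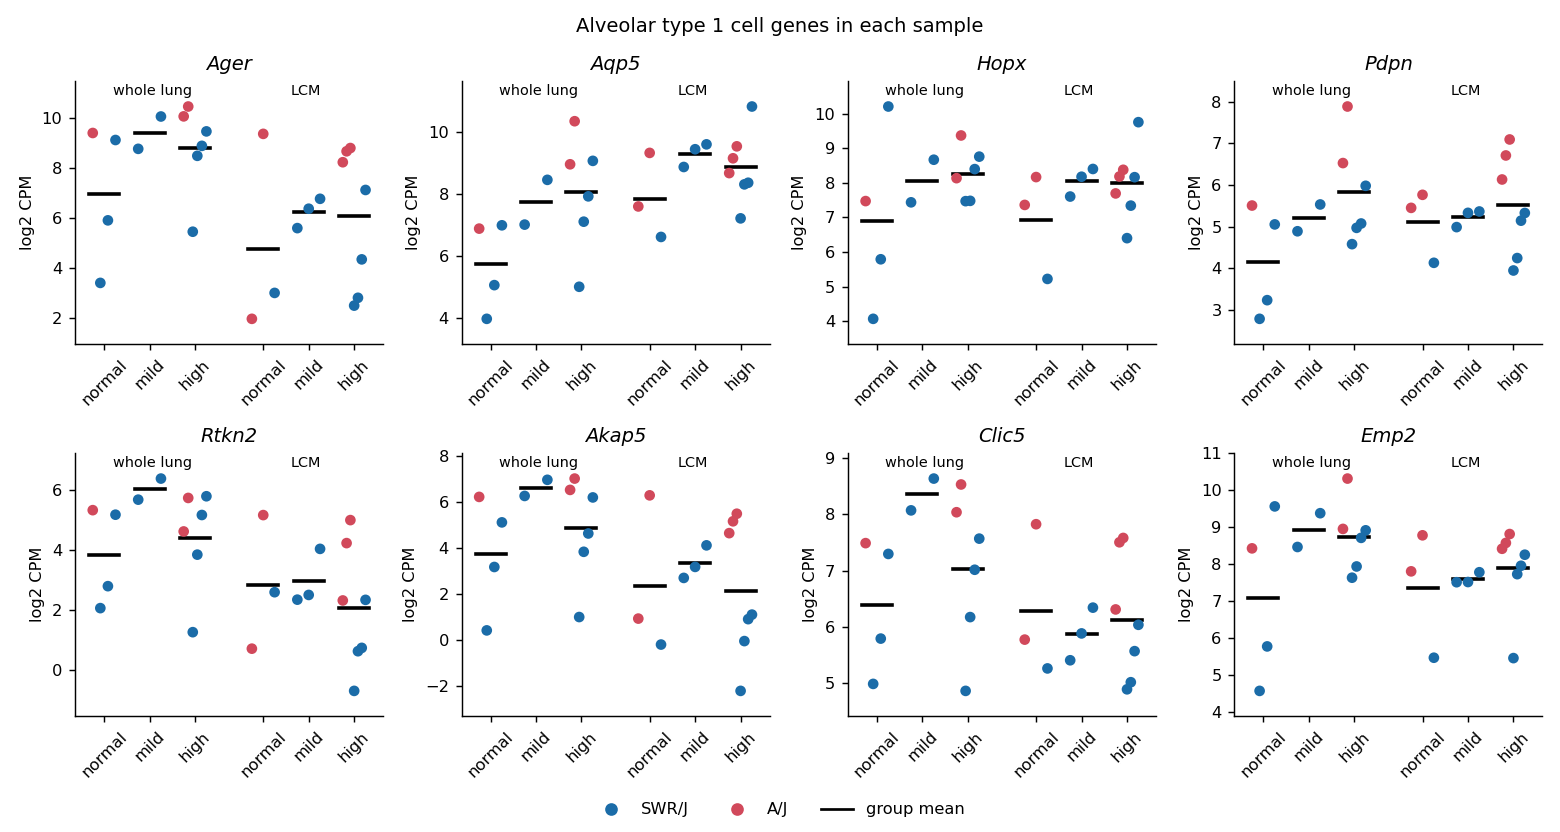
Level of each of the 8 genes (vertical axis, log2 CPM with a prior count of 2) in each of the 25 samples, placed by whole lung or LCM and by grade (horizontal axis), with SWR/J in blue, A/J in red and a black line at the group mean. Ager, Rtkn2 and Akap5 reached their lowest values in LCM samples, down to 1.98, -0.70 and -2.22 log2 CPM, while Aqp5 was lowest in whole lung at 3.97 log2 CPM.

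LCM samples were compared with whole lung to see how AT1 genes differ between captured cells and whole sections. Ager, Akap5, Rtkn2 and Clic5 fell, by 6.92-, 8.74-, 5.12- and 2.57-fold. These were 4 of 8 members called lower, where 9.05% of all genes tested were called lower. The median log2 fold change was -1.20 over the 8 members and -0.03 over all genes tested. The remaining 4 did not pass the test, and the value for Aqp5 had the opposite sign.

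Ager encodes RAGE, a receptor for advanced glycation end products and S100 proteins that sits in the basal membrane of AT1 cells. In whole lung its lowest, median and highest levels were 3.42, 9.01 and 10.46 log2 CPM (n = 12). In LCM samples they were 1.98, 6.38 and 9.37 log2 CPM (n = 13). The ranges overlapped, since the SWR/J whole lung samples with 3.42 and 5.92 log2 CPM among the normals and 5.46 log2 CPM among the high-grade samples lay below many LCM samples, and 4 of the 5 A/J LCM samples lay between 8.24 and 9.37 log2 CPM. With strain, grade and RNA integrity (the median transcript integrity number, TIN) as covariates, the log2 fold change of Ager was -2.79 (SE 0.76, adjusted p = 0.0185 by edgeR).

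Akap5 encodes an anchoring protein that holds protein kinase A and calcineurin at the membrane. Its levels in whole lung were 0.42, 5.67 and 7.03 log2 CPM (lowest, median and highest, n = 12), and in LCM samples -2.22, 2.70 and 6.30 log2 CPM (n = 13). The lowest LCM value came from an SWR/J sample with severe dysplasia and an expected count of 0, so that its log2 CPM is set by the prior count. The groups overlapped, and the log2 fold change was -3.13 (SE 0.71, adjusted p = 0.0073).

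Rtkn2 had whole lung levels of 1.26, 5.17 and 6.38 log2 CPM (lowest, median and highest, n = 12) and LCM levels of -0.70, 2.34 and 5.16 log2 CPM (n = 13). Its log2 fold change was -2.35 (SE 0.60, adjusted p = 0.0134). Clic5, an intracellular chloride channel family protein linked to the actin cortex, had whole lung levels of 4.87, 7.40 and 8.64 log2 CPM (lowest, median and highest, n = 12) against 4.89, 5.89 and 7.83 log2 CPM in LCM samples (n = 13). The Clic5 ranges began at almost the same level, and its log2 fold change was -1.36 (SE 0.33, adjusted p = 0.0095).

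The other members did not pass the test. Emp2, a tetraspan membrane protein, had a log2 fold change of -1.03 (SE 0.40, adjusted p = 0.087), and it was called by DESeq2 (-0.996, adjusted p = 0.044). For Pdpn, the mucin-like membrane glycoprotein podoplanin, the value was -0.29 (95% interval -0.79 to 0.21), and for Hopx, a small homeodomain protein without DNA binding, -0.22 (95% interval -1.22 to 0.79). Aqp5 encodes a water channel. Its whole lung levels were 3.97, 7.06 and 10.35 log2 CPM (lowest, median and highest, n = 12) and its LCM levels 6.61, 8.87 and 10.82 log2 CPM (n = 13), and its log2 fold change was 1.09 (SE 0.48, adjusted p = 0.125).

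Genes of neighbouring cells were measured in the same comparison. Of 20 other AT1 genes, 6 fell and 0 rose in LCM samples, with a median log2 fold change of -0.77. The largest differences were those of Cldn18, a tight junction claudin of the alveolar epithelium (-3.54, adjusted p = 0.025), and Col4a4, a basement membrane collagen chain (-2.78, adjusted p = 0.0186). Of 12 AT2 genes 6 fell, led by Lamp3 (-3.49, adjusted p = 0.033) and Sftpc (-3.44, adjusted p = 0.0366). Of 10 endothelial genes 7 fell, led by Cldn5 (-2.70, adjusted p = 0.0019) and Cdh5 (-2.29, adjusted p = 0.0015). Falls were not limited to these lists. The macrophage genes Marco (-4.52, adjusted p = 0.0034) and Chi3l3 (-3.16, adjusted p = 0.0139) fell. So did the lymphatic endothelial genes Lyve1 (-1.88, adjusted p = 0.0073) and Flt4 (-1.03, adjusted p = 0.0194). The other tested genes of these last lists did not pass.

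Of 5 submucosal gland and serous genes 4 rose in LCM samples, where 5.6% of all genes tested were called higher. These were Bpifa1 (3.28, adjusted p = 0.0229), Dmbt1 (3.09, adjusted p = 0.0065), Ltf (2.26, adjusted p = 0.0452) and Pigr (2.04, adjusted p = 0.0049). Of 6 ciliated cell genes 3 rose, Dnahc5 (1.71, adjusted p = 0.0405), Dynlrb2 (1.65, adjusted p = 0.0488) and Tppp3 (1.11, adjusted p = 0.0323). The club cell list was mixed, with 2 of 5 genes called higher, Cyp2f2 (1.83, adjusted p = 0.0087) and Aldh1a1 (1.52, adjusted p = 0.0351), while Cckar was at -2.35 (adjusted p = 0.194) and Scgb1a1 at -0.28 (adjusted p = 0.865). Of 10 airway basal and squamous genes 1 was called higher (Ngfr, 1.39, adjusted p = 0.0408), a share close to that over all genes. The largest values of that list were those of the keratins Krt6a (2.22, adjusted p = 0.0783) and Krt15 (2.07, adjusted p = 0.0505), and Ivl and Sprr1a were below 0. The part of these cell types in the values of the members was not tested.

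The difference between LCM and whole lung was also fitted within the normal samples, where 0 of 8 members and 0 of 15630 genes passed edgeR's adjusted test and 1699 genes (10.9%) had an unadjusted p under 0.05. DESeq2 called 0 of 8 members and 332 genes there. The 4 genes kept their signs, with Ager at -1.64 (95% interval -4.96 to 1.67) and Akap5 at -2.23 (95% interval -5.25 to 0.78). The 3 normal LCM samples held Ager at 9.37 and 1.98 log2 CPM in A/J and 3.02 log2 CPM in SWR/J mice. The value of 1.98 log2 CPM came from the A/J sample whose description and grade disagreed. The 4 normal whole lung samples held it at 9.40 log2 CPM in A/J and at 3.42, 5.92 and 9.12 log2 CPM in SWR/J mice. In SWR/J samples alone, Ager, Akap5, Rtkn2 and Clic5 were again called lower in LCM samples.

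Mild dysplasia was compared with normal histology as the earliest grade. Pdpn rose 2.96-fold and was the only 1 of 8 members called, where 5.22% of all genes tested were called higher. All 8 members had values above 0, from 1.22 to 2.61, with a median log2 fold change of 1.59 against -0.03 over all genes tested.

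Pdpn levels in the 3 mild dysplasia LCM samples were 5.33, 5.36 and 4.99 log2 CPM, and in the 2 whole lung samples 4.89 and 5.53 log2 CPM. The normal LCM samples were at 5.45 and 5.76 log2 CPM in A/J and 4.13 in SWR/J mice, and the normal whole lung samples at 5.50 log2 CPM in A/J and 2.78, 5.05 and 3.23 in SWR/J mice. Over both strains the groups overlapped. Among SWR/J samples of the same type, all 3 mild dysplasia LCM values lay above the 1 normal value, and in whole lung 1 normal sample (5.05 log2 CPM) lay between the 2 mild dysplasia values.

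With the covariates the log2 fold change of Pdpn was 1.56 (SE 0.39, adjusted p = 0.0216). The call depended on the covariates, and all mild dysplasia samples are SWR/J: without strain and sample type the value was 0.43 (adjusted p = 0.66). In SWR/J samples alone it was 1.49 (adjusted p = 0.0465), where Akap5 was called too at 3.78 (adjusted p = 0.045). With all 40 samples Pdpn was at 1.002 (adjusted p = 0.247). Without the 2 samples whose description and grade disagreed it was at 1.61 (adjusted p = 0.0391), with 991 genes called in place of 1967.

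Aqp5 was at 2.26 (SE 0.79, adjusted p = 0.058), with 8.87, 9.60 and 9.44 log2 CPM in the mild dysplasia LCM samples and 7.01 and 8.45 log2 CPM in whole lung. Normal LCM samples held Aqp5 at 7.60 and 9.32 log2 CPM in A/J and at 6.61 log2 CPM in SWR/J mice, and normal whole lung samples at 6.88 log2 CPM in A/J and at 5.05, 6.99 and 3.97 log2 CPM in SWR/J mice. In whole lung the mild dysplasia and normal values of Aqp5 did not overlap, by a gap as small as that between 7.01 and 6.99 log2 CPM. Those of Akap5 (lowest mild dysplasia value 6.28, highest normal value 6.23), Clic5 (8.07 and 7.49) and Rtkn2 (5.67 and 5.32) did not overlap either. These are 2 samples against 4, and the share of all genes without overlap was not computed. The levels are not adjusted for TIN, which was 63.4 to 75.1 in these mild dysplasia samples and 28.9 to 60.7 in the normal ones. In LCM samples the values of all these genes overlapped. The differences in mean log2 CPM there were 1.46 for Aqp5, 0.99 for Akap5, -0.41 for Clic5 and 0.14 for Rtkn2. Akap5 was at 2.61 (SE 1.06, adjusted p = 0.096), Ager at 1.96 (adjusted p = 0.271) and Emp2 at 1.62 (adjusted p = 0.123).

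The number of members called in mild dysplasia moved with single normal samples. It was 6 without the SWR/J whole lung normal sample that has the highest Emp2 and Hopx of its group (9.56 and 10.20 log2 CPM). That sample also had the lowest TIN (28.9) and the lowest sum of expected counts (3447363) of the normal samples. The count was 3 without the A/J LCM normal sample with Ager at 9.37 log2 CPM. It was 2 without the A/J LCM normal sample with Ager at 1.98 log2 CPM, whose description and grade disagreed. Thymocyte and T cell genes moved with this comparison: 7 of 7 tested were called lower, where 7.36% of all genes were, with a median log2 fold change of -6.31, and their sum was 14.1 to 161 CPM in mild dysplasia samples and 120 to 5349 CPM in normal samples. Without the 4 samples above 3000 CPM of that list, a choice made after seeing the data, 0 of 8 members and 0 of all genes were called by edgeR, with 2377 genes at an unadjusted p under 0.05. Pdpn was then at 1.45 (adjusted p = 0.135), close to its value with all samples, and Akap5 was at 1.55 and Ager at 0.67. That setting leaves 4 normal samples, 2 of A/J LCM and 2 of SWR/J whole lung.

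High-grade samples were compared with the same normal samples. None of the 8 members was called, where 0.0192% of all genes tested (3 genes) were called by edgeR. Of the 8 members, 2 had an unadjusted p under 0.05, as did 1420 genes (9.09%) of all tested, and DESeq2 called 0 of 8 members and 91 genes. All 8 values were above 0, with a median of 0.49 against 0.00 over all genes tested.

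The largest was that of Aqp5, at 1.98 (SE 0.61, 95% interval 0.72 to 3.24, adjusted p = 0.334). Its lowest, median and highest levels were 5.001, 8.67 and 10.82 log2 CPM in high-grade samples (n = 13) and 3.97, 6.88 and 9.32 log2 CPM in normal samples (n = 7), with overlap over most of the range. Pdpn followed at 1.08 (SE 0.30, 95% interval 0.46 to 1.70, adjusted p = 0.302). Pdpn in A/J mice was at 6.13, 6.71, 7.10, 6.53 and 7.89 log2 CPM in high-grade samples and at 5.45, 5.76 and 5.50 log2 CPM in normal samples, without overlap. Of the former, 7.10 log2 CPM was the SCC tumor and 7.89 log2 CPM the carcinoma in situ. In SWR/J mice it spanned 3.94 to 5.98 log2 CPM in high-grade samples (n = 8) and 2.78 to 5.05 log2 CPM in normal samples, with overlap.

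The genes that fell in LCM samples had smaller fitted differences between high-grade and normal samples, with Ager at 0.69 (95% interval -0.99 to 2.36), Akap5 at 0.34 (95% interval -1.14 to 1.81), Rtkn2 at 0.05 (95% interval -1.29 to 1.40) and Clic5 at 0.36 (95% interval -0.42 to 1.14). These intervals still hold changes of over 1 log2 unit in both directions for Akap5 and Rtkn2. The sign for Rtkn2 was negative under 6 of the alternatives tried. Without the 4 samples high in thymocyte genes the values of Akap5 and Hopx were below 0 as well, at -0.24 and -0.15. Skeletal muscle genes, which were high in 3 high-grade samples, were above 0 in 6 of 6 in this comparison with 0 called.

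Within whole lung the high-grade difference was 2.43 for Aqp5 (95% interval 0.64 to 4.23) and 1.40 for Pdpn (95% interval 0.55 to 2.26). Within LCM samples it was 1.41 for Aqp5 (95% interval -0.61 to 3.43) and 0.69 for Pdpn (95% interval -0.25 to 1.62). The difference between the sample types was itself tested and passed for 0 of 8 members (-1.02 for Aqp5, 95% interval -3.65 to 1.61, and -0.72 for Pdpn, 95% interval -1.93 to 0.50). In each of these fits edgeR called 0 of 15630 genes, with 1542, 774 and 1149 genes at an unadjusted p under 0.05, and DESeq2 called 0 members in each. The difference of the high-grade effect between A/J and SWR/J mice also passed for 0 of 8 members and 0 genes by edgeR (635 genes at an unadjusted p under 0.05, 0 members by DESeq2), with Pdpn at 0.34 (95% interval -1.02 to 1.70).

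Along the rank of grade, from 0 for normal to 4 for carcinoma in situ and the tumor, 0 of 8 members were called where 0.384% of all genes were (60 genes). The fitted slope of Pdpn was 0.41 log2 units per step (95% interval 0.16 to 0.66, adjusted p = 0.133), and DESeq2 called it (0.40, adjusted p = 0.0372). Aqp5 was at 0.62 per step (95% interval 0.12 to 1.12, adjusted p = 0.266). These 2 members were the only ones with an unadjusted p under 0.05, which 2125 genes (13.6%) had. Their levels did not rise at every step. Mean Pdpn was 4.56 log2 CPM in normal, 5.22 in mild, 5.43 in moderate to severe and 4.86 in severe dysplasia (n = 2). It was 7.89 log2 CPM in the carcinoma in situ and 7.10 in the SCC tumor, both from A/J mice. Mean Aqp5 was 8.59 log2 CPM in moderate to severe and 6.66 in severe dysplasia. Between high-grade and mild dysplasia, 0 of 8 members were called, where 0.339% of all genes were. Akap5 had the largest value there, -2.27 (95% interval -4.26 to -0.28, adjusted p = 0.165), the only member with an unadjusted p under 0.05 (3538 genes, 22.6%), and DESeq2 called 0 members. The comparisons of mild dysplasia and of high-grade with normal share their 7 control samples.

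**Figure D2:**
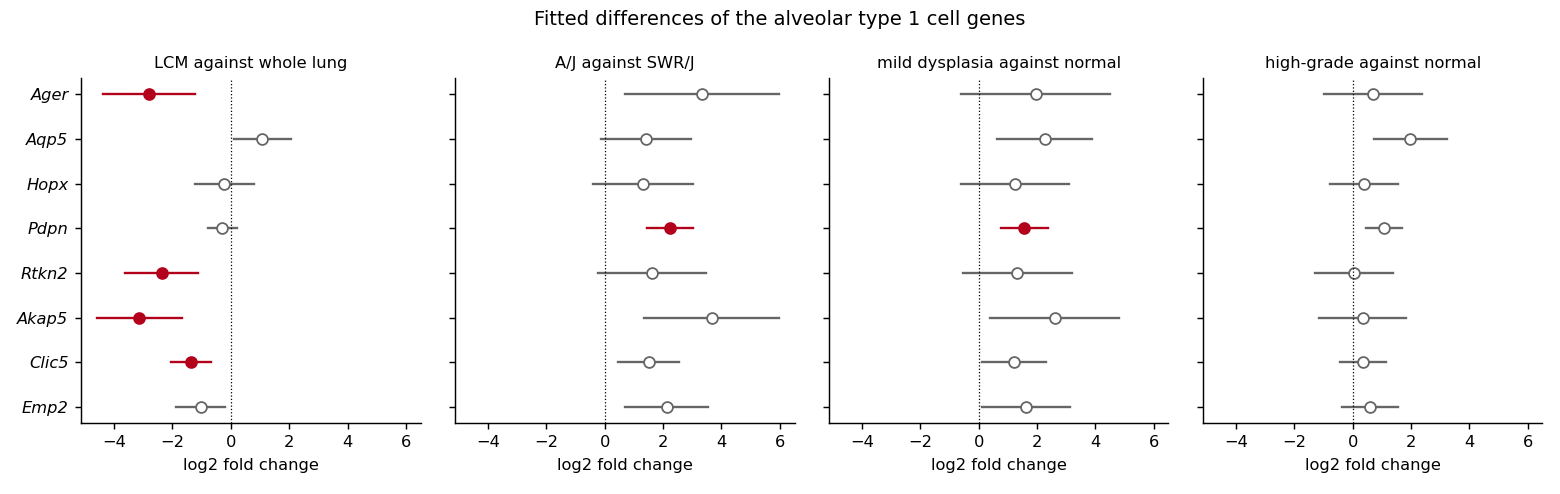
Log2 fold change (horizontal axis) of each gene (vertical axis) in 4 comparisons from edgeR, with lines for the 95% interval and filled red points where the adjusted p was under 0.05. Ager, Rtkn2, Akap5 and Clic5 were called in LCM against whole lung and Pdpn was called in A/J against SWR/J and in mild dysplasia against normal.

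Strain was compared because both mouse lines were used. Pdpn was 4.73-fold higher in A/J than in SWR/J mice, and it was the only 1 of 8 members called, where 0.365% of all genes tested were called higher. In A/J samples its lowest, median and highest levels were 5.45, 6.33 and 7.89 log2 CPM (n = 8), and in SWR/J samples 2.78, 4.99 and 5.98 log2 CPM (n = 17). The highest A/J values, 7.89 and 7.10 log2 CPM, were those of the carcinoma in situ and the SCC tumor. No SWR/J sample had these grades, and the fit was not run without them. Within LCM samples the strains did not overlap: the 5 A/J samples were at 5.45, 5.76, 6.13, 6.71 and 7.10 log2 CPM and the highest of 8 SWR/J samples was at 5.36 log2 CPM. In whole lung the A/J samples at 5.50, 6.53 and 7.89 log2 CPM overlapped with the SWR/J samples, the highest of which was at 5.98 log2 CPM. The log2 fold change was 2.24 (SE 0.38, adjusted p = 0.0018).

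All 8 members had values above 0, with a median of 1.87 against 0.03 over all genes. The other 7 did not pass: Akap5 was at 3.66 (SE 1.11, adjusted p = 0.111), Ager at 3.32 (SE 1.27, adjusted p = 0.189) and Emp2 at 2.12 (SE 0.69, adjusted p = 0.125), and the rest lay between 1.31 and 1.61. RNA integrity moved with strain, with a median TIN of 61.1 in A/J and 45.1 in SWR/J samples. Without TIN as a covariate 5 members were called (Ager, Pdpn, Rtkn2, Akap5 and Clic5), as were 2553 genes in place of 159, and the value for Hopx was then -0.03. DESeq2 called 5 members (Ager, Pdpn, Akap5, Clic5 and Emp2). All 20 of the other AT1 genes, all 12 YAP/TAZ axis genes and all 10 endothelial genes also had values above 0, with 0 called in each list. All listed ciliated cell and club cell genes were above 0 too, as were the airway basal and squamous genes other than Dsc3 (-0.04). Thymocyte and skeletal muscle genes had values of the other sign. Of the former, 7 of 7 lay between -3.61 and -1.76, and of the latter 6 of 6 between -3.92 and -2.12, with 0 called. Cardiac muscle genes were mixed, from -1.08 (Actc1) to 3.60 (Nppa). Without the 4 samples high in thymocyte genes Pdpn was at 2.27 (adjusted p = 0.0215), and without the 3 high in skeletal muscle genes at 2.19 (adjusted p = 0.0049). The other 7 members were not called in either setting and stayed above 0, with Ager at 2.24 and 4.22 and Akap5 at 2.89 and 3.77 in turn.

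The members did not vary as 1 group. Over 25 samples the pairwise Pearson's r of log2 CPM between members ranged from 0.03 to 0.93 with a median of 0.61. Ager varied with Akap5 (r = 0.93), Rtkn2 (r = 0.83) and Clic5 (r = 0.79), and Hopx with Emp2 (r = 0.88), while Ager and Aqp5 had an r of 0.15 and Aqp5 and Rtkn2 had 0.03. All these correlations are over samples that share strain, sample type and grade, and are given as descriptions.

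The lowest values of r came from LCM samples. Within them (n = 13) the median r between members was 0.54 and Aqp5 had an r of 0.01 with Ager and -0.15 with Rtkn2. Within whole lung (n = 12) the median was 0.81, the lowest value was 0.57 and the r of Aqp5 with Ager was 0.86. Whether the correlations differ between sample types was not tested.

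**Figure D3:**
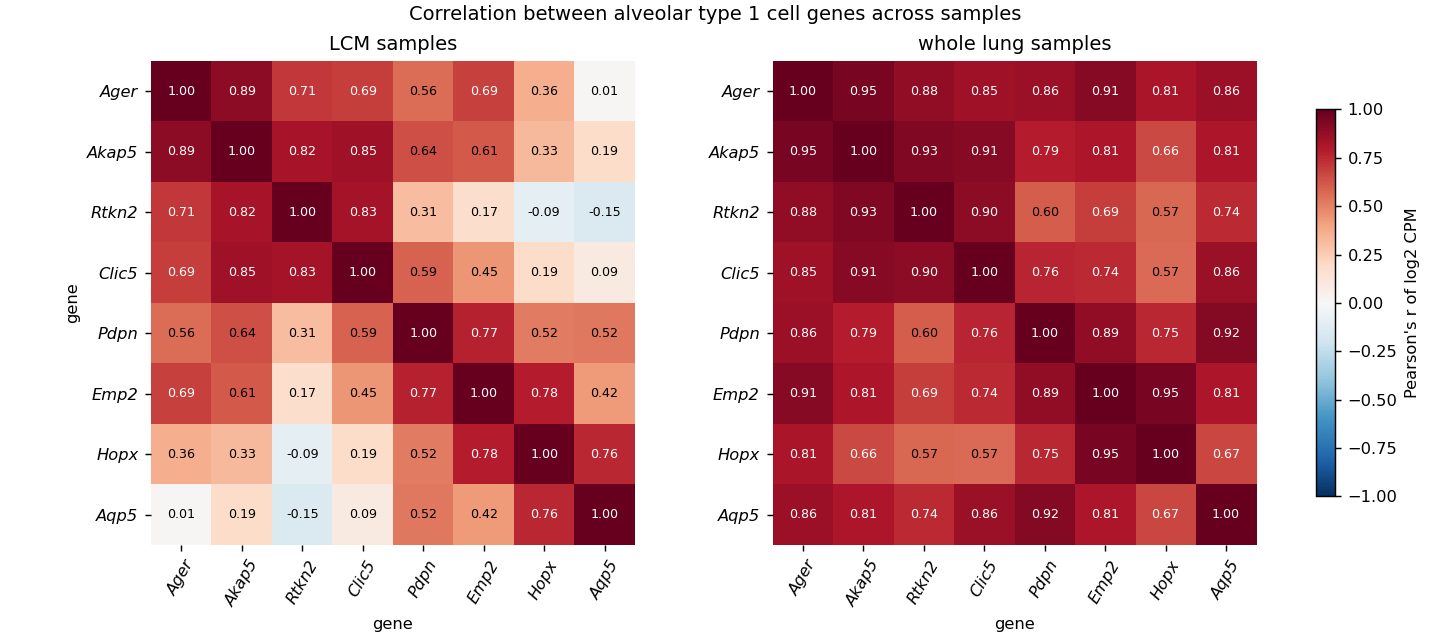
Pearson's r of log2 CPM between each pair of the 8 genes (both axes) in 13 LCM samples and 12 whole lung samples, on a colour scale from -1 (blue) to 1 (red). In LCM samples Aqp5 had values from -0.15 to 0.19 with Ager, Akap5, Rtkn2 and Clic5, and in whole lung all pairs were at or above 0.57.

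Ager varied over samples with the AT2 gene Sftpc, with an r of 0.94 over all samples, 0.94 within LCM and 0.92 within whole lung. The other genes most like Ager among the 14210 genes searched (mean level of 1 log2 CPM or more) were Cldn18 (r = 0.97), Tmem100 (r = 0.95) and Ramp2 (r = 0.95). Akap5 followed endothelial genes closely, with an r of 0.96 with Cdh5 (VE-cadherin). Its nearest genes were Clec14a, Prx (both r = 0.97) and Gpr116 (r = 0.97). After adjustment for TIN, strain and sample type the nearest to Akap5 were Cldn18 (r = 0.97), Sftpc and Lamp3 (both r = 0.96). Without adjustment Akap5 also had an r of 0.90 with Sftpc, and Ager had 0.89 with Cdh5. For Rtkn2 the nearest was Car4, a carbonic anhydrase of lung capillaries (r = 0.96), then Sept4 (r = 0.95) and Ppm1f (r = 0.93), and for Clic5 they were Arhgap31 (r = 0.95), Ptprb and Cyyr1 (both r = 0.94).

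Aqp5 was most like Krt7, a keratin of simple epithelia that is itself on the list of other AT1 genes, with an r of 0.97 over all samples, 0.91 within LCM and 0.98 within whole lung. Its r with Sftpc was 0.15 over all samples, 0.17 within LCM and 0.68 within whole lung. The r of Ager with Krt7 was 0.13 over all samples, -0.002 within LCM and 0.80 within whole lung. After Krt7, the genes most like Aqp5 were Klhdc8a (r = 0.94) and Mal (r = 0.93). Pdpn was most like Baiap2l1 (r = 0.89), Gcnt2 and Wnt9a (both r = 0.88), and Emp2 was most like Tjp1, the tight junction protein ZO-1 (r = 0.95), then Epn2 (r = 0.95) and Tnfaip1 (r = 0.94). Hopx was most like Rab31 (r = 0.91), 2310007B03Rik (r = 0.91) and AA986860 (r = 0.90), and after adjustment for TIN, strain and sample type it was most like Gm15830 (r = 0.94), whose exons overlap those of Hopx.

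**Figure D4:**
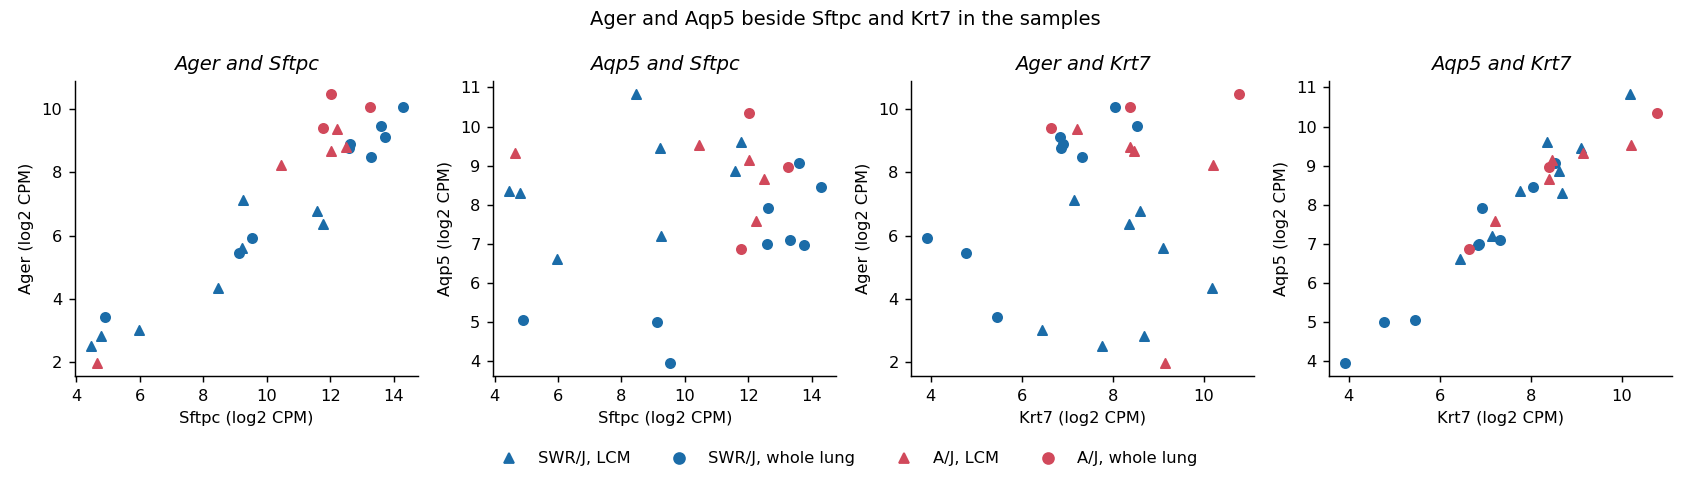
Ager or Aqp5 (vertical axis, log2 CPM) against Sftpc or Krt7 (horizontal axis, log2 CPM) in 25 samples, with triangles for LCM, circles for whole lung, blue for SWR/J and red for A/J. Ager follows Sftpc (r = 0.94) and Aqp5 follows Krt7 (r = 0.97), while Aqp5 with Sftpc and Ager with Krt7 have an r of 0.15 and 0.13.

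The mean z-score of the 8 members was most like Zfp697 (r = 0.96), Slco2a1, a prostaglandin transporter (r = 0.94), and Sema3c, a secreted semaphorin (r = 0.94), followed among others by Bdnf, Tbx4, Smad6, Fads3, Cdc42ep1 and Pvrl3 (r from 0.92 to 0.93). Of the 10 genes most like it, 3 were also among the 10 nearest within LCM samples and 4 within whole lung. After adjustment for TIN, strain and sample type the 10 nearest were Slco2a1, Prx, Zfp697, Sema3c, Smad6, Gpr116, Epb4.1l5, Esam, Etv5 and Phldb2, with r from 0.93 to 0.95.

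Lists tied to AT1 cells were counted in the same fits. The counts in mild dysplasia are to be read against the 5.22% of all genes called higher there, and 0 genes were called without the 4 samples high in thymocyte genes. The YAP/TAZ axis is the mechanical signalling pathway known for promoting AT1 identity. Of its 12 listed genes, 8 rose in mild dysplasia (median log2 fold change 1.39). Among the 8 were Lats1 (0.61, adjusted p = 0.0464) and Amotl2 (1.69, adjusted p = 0.0328). In LCM samples 2 of the 12 fell, Tead2 (-1.30, adjusted p = 0.0081) and Lats2 (-0.74, adjusted p = 0.0226), with Ankrd1 at -1.74 (adjusted p = 0.095). None of the 12 passed in high-grade against normal. Activity of the pathway was not tested, and these counts do not give its direction. Of 12 genes of the transitional state between AT2 and AT1 cells, 3 rose in mild dysplasia, the growth factors Areg (3.11, adjusted p = 0.0448) and Hbegf (2.34, adjusted p = 0.0341) and the integrin chain Itgb6 (2.67, adjusted p = 0.0317). In LCM samples 1 of the 12 was called higher (Krt19, 1.97, adjusted p = 0.0106), near the 5.6% of all genes, and along the rank of grade 1 was called (Tnfrsf12a, 0.64 per step, adjusted p = 0.0479). Cldn4 was at 1.47 in LCM samples (adjusted p = 0.065). Of 9 ligands of RAGE, 1 was called higher in LCM samples (S100a11, 1.37, adjusted p = 0.0104) and 1 in mild dysplasia (App, 1.496, adjusted p = 0.0272), shares not far above those over all genes. S100a6 was at 1.23 in LCM samples (adjusted p = 0.079). Of the other AT1 genes, 3 of 20 rose in mild dysplasia, Lmo7 (2.08, adjusted p = 0.0329), Timp3 (1.96, adjusted p = 0.0179) and Cav2 (1.90, adjusted p = 0.0201), and 0 passed in high-grade against normal and 0 in A/J against SWR/J.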

How the data were processed

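The authors prepared TruSeq libraries from polyadenylated RNA, read 50 nucleotides from 1 end, used Trimmomatic for trimming and STAR for alignment to mm9, and deposited the expected counts of RSEM for Ensembl genes, without normalization. An expected count can be a fraction, because a read with several possible genes is divided. Gene names and positions came from the NCBIM37 annotation. The 25 samples with passed qc TRUE were used. The 15 others entered only 1 alternative.

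Expected counts were rounded and tested in edgeR 4.0.16 (R 4.3.3) with TMM, a robust quasi-likelihood test and the covariates strain, sample type and median TIN, on the 15630 genes with an interquartile range above 0 and a sum of log2 CPM above 1 (prior count 2). P-values were adjusted over all of them by Benjamini-Hochberg with a threshold of 0.05. The SE is the log2 fold change divided by the root of F. The design of the fits was tested on simulated data. DESeq2 1.42.0, RLE factors, other filters, covariates and sample sets were alternatives, and 2 of these, without samples high in thymocyte or skeletal muscle markers, were chosen after seeing the data.

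All 8 members are named. Of a marker list described by its genes in LCM samples, the 2 with the largest LCM difference among those averaging 1 log2 CPM or more are named, with defining markers beside a result they move with. Other genes called where a list has 5 or fewer (such as Lats2, Ngfr, Ltf, Pigr, Aldh1a1, Tppp3, App, Tnfrsf12a, Areg, Hbegf, Itgb6, Lmo7, Timp3 and Cav2), and Scgb1a1, Ivl and Sprr1a, were named after their values were seen. For likeness, the 10 genes with the highest Pearson's r to the members' mean z-score are named, except 1 that is not reported here, and 3 for each member. Lats1, Amotl2, Actc1, Nppa and Dsc3 were also named after their values were seen. The members and lists were chosen with earlier results of these data known.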

Additional observations from a re-analysis of the deposited data

Results flagged for a closer look

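Of 40 tests for a sample far from the rest of its group (groups of 4 to 10 samples of 1 grade, or of 1 grade and sample type), 1 found such a sample, where chance gives about 1 in 20. Emp2 was at 5.46 log2 CPM in 1 SWR/J high-grade LCM sample, and its gap to the nearest of the other 6 was 0.677 of the range of the group. The same sample had thymocyte and T cell genes summing to 3276 CPM and the lowest Pdpn of its group, 3.94 log2 CPM.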

How the results depend on the processing

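Of 468 values of single members compared with their alternatives, 435 kept their sign and their side of the threshold. Single samples were left out in turn only from the normal and mild dysplasia groups (12 samples), and no high-grade sample was left out in this way. The calls of Ager, Akap5, Rtkn2 and Clic5 in LCM against whole lung held in every alternative run. With those single samples left out, 4 to 5 members were called. The call of Pdpn in A/J against SWR/J also held in every alternative run, with 1 member called without each single normal or mild dysplasia sample. Its dependence on single high-grade samples, which include 5 of the 8 A/J samples, was not tested.

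In mild dysplasia the count of 1 member was 4 by DESeq2 (3653 genes in place of 1967) and 0 without strain and sample type (0 genes). It was 0 with all 40 samples (12 genes) and 2 in SWR/J samples only. It was 0 without the samples high in thymocyte markers (0 genes) and 2 without those high in skeletal muscle markers. Without each single normal or mild dysplasia sample it was 1 to 6 (670 to 3131 genes). In A/J against SWR/J it was 5 by DESeq2 (961 genes in place of 159) and 5 without median TIN. Along the rank of grade it was 1 in place of 0 by DESeq2 and 1 without strain and sample type. In high-grade against mild dysplasia 1 member, Akap5, was called in place of 0 without median TIN (2345 genes in place of 53). Counts of all genes called moved by over 1.5 times elsewhere too. In mild dysplasia 991 were called without the 2 samples with conflicting labels and 1007 without the 2 that stand apart, in place of 1967. In LCM against whole lung 1380 were called with all 40 samples, 598 in SWR/J samples only, 1306 without the 2 with conflicting labels and 1253 without those high in thymocyte markers, in place of 2289. In A/J against SWR/J 254 were called without a filter, 253 with filterByExpr and 46 without those high in thymocyte markers. The 53 genes of high-grade against mild dysplasia became 1377 by DESeq2 and 0 to 34 with other filters or sample sets. Without each single normal or mild dysplasia sample they became 0 to 145. The 60 of the rank of grade became 535 by DESeq2, 200 without strain and sample type, 174 without median TIN and 39 with RLE factors. They became 99 without samples high in skeletal muscle markers, 3 without samples high in thymocyte markers and 0 in SWR/J samples only. Without each single normal or mild dysplasia sample they became 8 to 189. The 3 of high-grade against normal became 91 by DESeq2 and 0 to 6 elsewhere. In all these the cause was not tested.

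Signs changed only for values that were not called. In high-grade against normal, Rtkn2 was at -0.042 by DESeq2, -0.0041 without median TIN, -0.051 with all 40 samples, -0.14 without the 2 samples with conflicting labels, -0.048 without the 2 samples that stand apart in correlation or TIN, and -0.27 without those high in thymocyte markers, where Akap5 was at -0.24 and Hopx at -0.15. Without strain and sample type, Ager was at -0.10 in mild dysplasia against normal and Akap5 at 0.20 in high-grade against mild dysplasia. Pdpn was at 0.093 in LCM against whole lung with all 40 samples, and Hopx at -0.032 in A/J against SWR/J without median TIN.

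Neither a prior count of 0.25 nor the longest transcript as gene length moved a median level by more than 1 SD. Low levels limit Akap5 and Rtkn2, which had expected counts of 0 and 1 in 1 LCM sample. No paired analysis was possible because the labels give no number that pairs samples across groups.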
